A study of Mus musculus with 10 samples.

Results

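The interferon-gamma-inducible GTPases are proteins of cell-autonomous immunity, and 10 of their genes were followed in visceral fat of tumour-bearing mice. They were picked by gene symbol as Igtp, Irgm1, Irgm2, Iigp1, Tgtp2, Gbp2, Gbp3, Gbp4, Gbp7 and Gbp9, and all 10 were found among the 16667 genes of the table of normalized counts. RNA was sequenced from visceral fat of C57BL/6 mice of wild type genotype, all 10 weeks old, under sample titles that end in gwat. In the KPC group, 5 libraries came from mice inoculated with orthotopic pancreatic tumours. In the sham group, 5 libraries came from mice that had sham surgery. KPC is the usual name of a genetic mouse model of pancreatic cancer. The labels do not give the tumour line or clone, the sex of the mice or the time since surgery. Each library is taken as 1 mouse, and p-values measure the spread between these libraries.

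Interferon-gamma, secreted mainly by natural killer cells and T cells, binds a receptor of the chains Ifngr1 and Ifngr2. Its kinases Jak1 and Jak2 then signal to gamma-activated sites in DNA, and further transcription factors such as Irf1 are induced. Irf1 and a complex that holds Stat2 and Irf9 bind interferon-stimulated response elements, so that many of these genes answer to type I interferon as well. The immunity-related GTPases (IRG) and guanylate-binding proteins (GBP) made in response gather on the vacuoles in which intracellular pathogens live and help to break them open. In mice the IRG proteins comprise regulators, which sit on the cell's own membranes and keep the others inactive there, and effectors, which load onto pathogen vacuoles.

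The windows of 250 bases before to 50 bases after the RefSeq transcription start are shown for the members whose differences between groups are described first and whose windows were found, because cores of interferon elements can be read in them. RefSeq windows on GRCm38.p6 were found for 7 of the 10 genes, namely Igtp, Irgm2, Irgm1, Tgtp2, Gbp2, Gbp3 and Gbp7, and not for Gbp4, Gbp9 and Iigp1. Capitals mark each match to the core of a gamma-activated site, TTCNNNGAA, or of an interferon-stimulated response element (GAAA, a pair of any bases, GAAA), searched on both strands. The windows are chr11:58199306-58199605 (plus strand) for Igtp, chr11:58214727-58215026 (plus strand) for Irgm2, chr11:49064163-49064462 (minus strand) for Tgtp2, chr11:48871371-48871670 (minus strand) for Irgm1 and chr3:142620413-142620712 (plus strand) for Gbp2.
Igtp: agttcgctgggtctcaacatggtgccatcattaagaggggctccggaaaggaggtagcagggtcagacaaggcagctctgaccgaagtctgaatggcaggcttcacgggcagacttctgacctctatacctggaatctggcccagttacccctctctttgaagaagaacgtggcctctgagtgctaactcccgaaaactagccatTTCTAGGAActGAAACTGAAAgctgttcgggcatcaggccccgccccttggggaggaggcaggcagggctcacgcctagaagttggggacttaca
Irgm2: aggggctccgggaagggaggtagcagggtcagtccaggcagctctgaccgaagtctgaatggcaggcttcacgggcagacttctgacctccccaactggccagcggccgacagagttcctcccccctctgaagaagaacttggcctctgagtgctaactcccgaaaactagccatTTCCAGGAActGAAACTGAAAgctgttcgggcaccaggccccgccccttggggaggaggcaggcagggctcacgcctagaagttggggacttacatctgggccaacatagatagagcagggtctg
Tgtp2: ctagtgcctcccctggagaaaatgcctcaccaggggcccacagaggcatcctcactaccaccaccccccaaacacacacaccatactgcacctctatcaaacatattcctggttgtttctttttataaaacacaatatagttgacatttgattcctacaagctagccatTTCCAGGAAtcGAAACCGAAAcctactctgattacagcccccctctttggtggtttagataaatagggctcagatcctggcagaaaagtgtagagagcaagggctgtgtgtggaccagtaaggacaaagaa
Irgm1: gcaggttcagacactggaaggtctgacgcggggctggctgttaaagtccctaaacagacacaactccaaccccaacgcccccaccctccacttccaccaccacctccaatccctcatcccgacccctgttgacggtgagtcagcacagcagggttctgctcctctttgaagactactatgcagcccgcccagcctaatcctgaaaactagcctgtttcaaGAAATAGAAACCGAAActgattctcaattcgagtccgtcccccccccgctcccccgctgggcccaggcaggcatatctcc
Gbp2: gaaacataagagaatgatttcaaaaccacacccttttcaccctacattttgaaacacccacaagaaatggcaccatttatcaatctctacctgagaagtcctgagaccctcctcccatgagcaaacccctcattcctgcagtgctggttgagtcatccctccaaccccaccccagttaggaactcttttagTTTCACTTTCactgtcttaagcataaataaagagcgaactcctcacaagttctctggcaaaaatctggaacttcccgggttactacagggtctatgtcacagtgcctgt

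A response-element core stood in at least 1 window of each of the 7 genes, against 3.44% of the 32851 windows in the table. A gamma-activated core stood in 4 of the 7 (Igtp, Irgm2, Tgtp2 and Gbp7), against 8.30% of all windows, and those 4 held both cores, against 0.45%. In Igtp, Irgm2 and Tgtp2 the gamma-activated core was followed after 2 bases by the response-element core on the same strand. The same letters with the same spacing, a pattern looked for after these windows had been read, were found in 5 windows of the 32851 (0.0152%). Their genes were Igtp, Irgm2, Tgtp2, Tgtp1 and Gm12185, all on chromosome 11. Tgtp1 is a near-copy of Tgtp2, and the Igtp and Irgm2 windows printed above are alike over long stretches. The 5 windows are therefore not independent occurrences. In Irgm1 and in the first of 2 windows of Gbp3, a pair of overlapping response-element cores was found, and the other Gbp3 window held no match. In Gbp7 the gamma-activated cores began at -106 and -87 and the response-element core at -53, counted in bases from the start. A match of letters is a description and does not show that a factor binds there.

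Among the IRG regulators, Igtp, also called Irgm3, stood higher in all KPC mice than in any sham mouse. Igtp (chromosome 11, 58199556 to 58207591, plus strand, GRCm38, GENCODE vM21) encodes a regulator found on the endoplasmic reticulum and on lipid droplets. Its level in TPM (a share of all transcripts, corrected for gene length) was 22.7, 20.4, 20.8, 21.6 and 32.0 in KPC mice 1 to 5, against 14.9, 15.0, 16.9, 16.1 and 16.4 in sham mice 1 to 5. KPC mouse 5 stood well above the other KPC mice, and the groups did not overlap. The difference was 0.58 ± 0.12 (log2 of normalized count + 1, SE) with a 95% interval of 0.31 to 0.84, a fold of 1.49. By limma across all 14203 genes tested its adjusted p was 0.0992, so the difference did not pass the threshold of 0.05.

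Irgm2 (chromosome 11, 58199618 to 58222782, plus strand) encodes a regulator placed on the Golgi apparatus. It had 16.8, 19.7, 21.7, 22.4 and 29.1 TPM in KPC mice 1 to 5, against 15.2, 13.5, 13.4, 12.6 and 17.2 TPM in sham mice 1 to 5. KPC mouse 1 lay just under the highest sham mouse in TPM, while in normalized counts the lowest KPC mouse had 1063 and the highest sham mouse 1001. The log2 difference was 0.63 ± 0.14 (95% interval 0.32 to 0.95; limma adjusted p = 0.114).

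Irgm1 (chromosome 11, 48861968 to 48871683, minus strand), a regulator on Golgi, lysosomal and mitochondrial membranes that is needed for macrophage defence against mycobacteria, overlapped between groups. It had 25.5, 15.7, 19.8, 23.3 and 26.2 TPM in KPC mice 1 to 5, against 14.4, 14.3, 16.1, 14.9 and 19.2 TPM in sham mice 1 to 5. KPC mouse 2 lay within the sham range, and the log2 difference was 0.50 ± 0.14 (95% interval 0.20 to 0.81; limma adjusted p = 0.190).

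Both IRG effectors had larger estimated differences than the regulators. Tgtp2 (chromosome 11, 49057194 to 49064206, minus strand) encodes Irgb6, an effector that loads early onto Toxoplasma vacuoles. It had 13.3, 14.8, 13.6, 15.7 and 24.7 TPM in KPC mice 1 to 5, against 9.50, 8.52, 11.9, 6.43 and 6.04 TPM in sham mice 1 to 5. The groups did not overlap, and KPC mouse 5 again stood apart. The difference of 0.99 ± 0.22 (95% interval 0.50 to 1.47), a fold of 1.98 with an interval of 1.42 to 2.78, was the largest of the 10 and had a limma adjusted p of 0.114.

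Iigp1 (chromosome 18, 60376027 to 60392634, plus strand) encodes Irga6, the best studied effector. It had 37.2, 30.7, 26.7, 29.4 and 44.6 TPM in KPC mice 1 to 5, against 24.9, 20.7, 19.9, 18.5 and 20.1 TPM in sham mice 1 to 5. The groups did not overlap in TPM, while in normalized counts KPC mouse 4, at 1433, lay just under sham mouse 1, at 1451. The log2 difference was 0.71 ± 0.16 (95% interval 0.36 to 1.07; limma adjusted p = 0.119).

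Among the GBP genes, Gbp2 was the most abundant of all 10 genes in both groups, and it was the GBP gene whose groups did not overlap. Gbp2 (chromosome 3, 142620602 to 142638008, plus strand) encodes a lipid-anchored GBP that gathers on pathogen vacuoles and bacteria. It had 50.9, 45.7, 53.1, 55.6 and 53.2 TPM in KPC mice 1 to 5, against 40.3, 36.1, 41.4, 40.3 and 44.6 TPM in sham mice 1 to 5. The groups did not overlap, although the lowest KPC and the highest sham mouse were close. KPC mouse 4 rather than KPC mouse 5 was highest in TPM, and KPC mouse 3, at 2652, in normalized counts. The log2 difference was 0.38 ± 0.08 (95% interval 0.20 to 0.57; limma adjusted p = 0.103).

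Gbp9 (chromosome 5, 105077630 to 105139539, minus strand), which was seen on Toxoplasma vacuoles in mouse cells, split the KPC group in TPM. It had 9.47, 8.96, 11.5, 13.4 and 15.5 TPM in KPC mice 1 to 5, against 8.46, 9.43, 8.37, 9.74 and 9.57 TPM in sham mice 1 to 5. In TPM, KPC mice 3, 4 and 5 lay above every sham mouse and KPC mice 1 and 2 lay within the sham range. In normalized counts KPC mouse 1, at 780, lay above the highest sham mouse, at 734. There KPC mouse 2, at 727, lay just under that sham mouse. The log2 difference was 0.38 ± 0.13 with a limma adjusted p of 0.282.

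Gbp3 and Gbp7 overlapped broadly between groups. Gbp3 (chromosome 3, 142560026 to 142573209, plus strand) averaged 20.1 ± 2.67 TPM in KPC mice and 17.2 ± 1.92 TPM in sham mice (SD, n = 5 each), a log2 difference of 0.26 ± 0.12 with a limma adjusted p of 0.365. Gbp7 (chromosome 3, 142530342 to 142550149, plus strand), which takes part in macrophage defence against intracellular bacteria, averaged 16.4 ± 2.35 TPM in KPC mice and 14.8 ± 1.64 TPM in sham mice. Its log2 difference of 0.18 ± 0.11 had a limma adjusted p of 0.507.

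Gbp4 was the lowest of the 10 genes and gave no usable direction. Gbp4 (chromosome 5, 105115767 to 105139586, minus strand) was listed at 0 in KPC mouse 1 and had 2.64, 1.96, 1.09 and 2.77 TPM in KPC mice 2 to 5, against 0.515, 0.335, 2.07, 0.960 and 1.31 TPM in sham mice 1 to 5. The log2 difference was -0.24 ± 1.31 with all mice (limma adjusted p = 0.954) and 1.23 without KPC mouse 1. Exons of the neighbouring Gbp8 and Gbp9 overlap those of Gbp4 by 61 and 60 of 7494 bases. Of the distinct stretches of 31 bases in Gbp4 transcripts, 6.91% also occur in Gbp6 and 6.79% in Gm43302, the highest shares of any gene. Gbp8 had 2.41 TPM in KPC mouse 1, its highest value of all mice. A link between the values of Gbp4 and Gbp8 in that mouse was not tested.

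**Figure D1:**
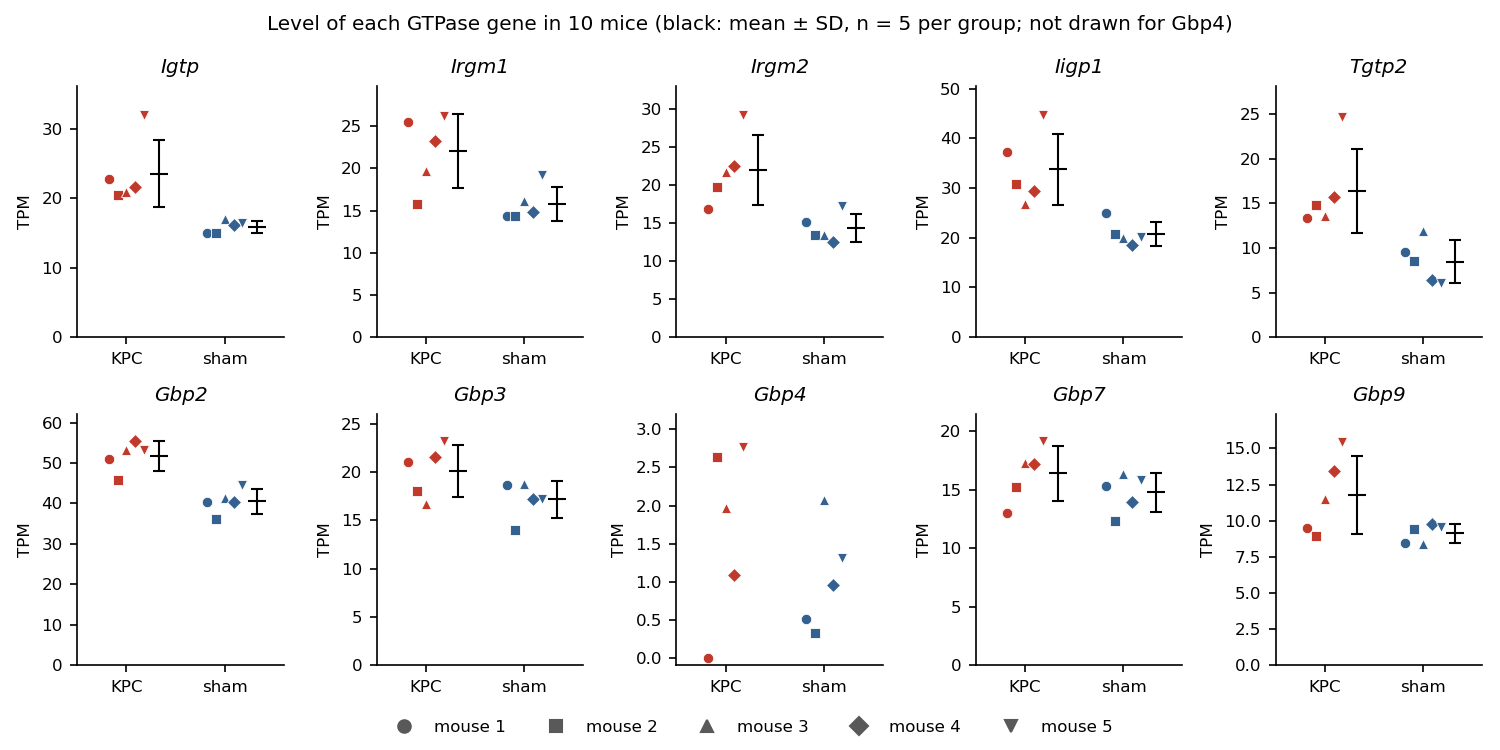
Level in TPM (y axis) of each of the 10 GTPase genes in KPC mice (red, left) and sham mice (blue, right), with 1 point per mouse, a marker shape per mouse number and black bars for mean ± SD except for Gbp4. Igtp, Iigp1, Tgtp2 and Gbp2 show no overlap between groups, KPC mouse 5 is highest for 9 of the 10 genes, and Gbp4 is listed at 0 in KPC mouse 1.

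As a group, 9 of the 10 genes had a positive difference, where 46.9% of all genes tested did. An unadjusted limma p under 0.05 in the higher direction was reached by 8 of the 10 (all but Gbp4 and Gbp7), where 7.61% of all genes reached it, and by 0 in the lower direction, where 5.91% did. The groups did not overlap in normalized counts for 4 of the 10 (Igtp, Irgm2, Tgtp2 and Gbp2), where 2.75% of all genes lay wholly higher in KPC mice. In TPM this held for 4 as well (Igtp, Iigp1, Tgtp2 and Gbp2), against 1.99% of all genes. At an adjusted p under 0.05, 0 of the 10 were called, and over all genes 7 were called higher (0.0493%) and 1 lower (0.00704%). The median log2 difference was 0.44 over the 10 genes and -0.02 over all genes tested. The 5 IRG genes ran from 0.50 to 0.99 with a median of 0.63, and the 5 GBP genes from -0.24 to 0.38 with a median of 0.26. Whether the families differ was not tested.

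Summed over the 5 IRG genes, levels were 101 to 157 TPM in KPC mice and 68.4 to 78.9 TPM in sham mice, a ratio of means of 1.56. Summed over the 5 GBP genes they were 90.6 to 114 TPM in KPC mice and 72.2 to 88.6 TPM in sham mice, a ratio of 1.23. The rank of the genes by mean TPM in KPC mice was Gbp2, Iigp1, Igtp, Irgm1, Irgm2, Gbp3, Tgtp2, Gbp7, Gbp9 and Gbp4, with no overlap between neighbours only for Gbp2 above Iigp1 and Gbp9 above Gbp4. In sham mice it was Gbp2, Iigp1, Gbp3, Igtp, Irgm1, Gbp7, Irgm2, Gbp9, Tgtp2 and Gbp4. There only Gbp2 above Iigp1, Irgm2 above Gbp9 and Tgtp2 above Gbp4 were apart, and the other neighbours in both orders overlapped.

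Several of these genes share sequence, and how Salmon divides such reads is an estimate. Of the distinct stretches of 31 bases in the annotated transcripts of Tgtp2, 89.2% also occur in Tgtp1, whereas Gbp2 shares 4.85% and Irgm1 2.88% with any other gene. Igtp and Irgm2 share 162 exon bases on 1 strand. With such genes summed, an alternative added after the data were seen, Tgtp1 plus Tgtp2 averaged 27.6 ± 8.14 TPM in KPC mice and 13.9 ± 2.71 TPM in sham mice (SD, n = 5 each), without overlap. The sum's log2 difference was 1.01 ± 0.17 with a limma adjusted p of 0.0788. Igtp plus Irgm2 gave 0.61 ± 0.12 (limma adjusted p = 0.0826), also without overlap.

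Gbp4, Gbp8 and Gbp9 summed had 11.9, 12.6, 15.2, 15.8 and 18.9 TPM in KPC mice 1 to 5, against 9.36, 10.4, 11.1, 11.4 and 12.0 TPM in sham mice 1 to 5. Gbp9 made up most of the sum, with 9.47 of the 11.9 TPM in KPC mouse 1, so a Gbp4 value of 0 could hardly show in it. In TPM, KPC mouse 1 was the lowest KPC mouse and lay under sham mouse 5. In normalized counts the groups did not overlap, with 885 in KPC mouse 1 and 852 in sham mouse 5. The log2 difference was 0.45 ± 0.12 (limma adjusted p = 0.180).

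Differences in the wider family were positive too. For this and the lists below, the shares over all genes tested stand beside the counts. They were 46.9% with a positive difference, 7.61% with an unadjusted p under 0.05 in the higher direction and 2.75% wholly higher in normalized counts. Of 18 further interferon-inducible GTPase genes listed, 13 were tested and the other 5 (Gbp6, Gbp10, Ifgga2, Ifgga3 and Ifgga4) were not analysed here. All 13 differences were positive with a median of 0.92, 10 had an unadjusted p under 0.05, 3 did not overlap and 0 were called. Ifi47, an IRG gene, averaged 27.2 ± 10.2 TPM in KPC mice and 11.8 ± 2.18 TPM in sham mice (log2 difference 1.19 ± 0.23; limma adjusted p = 0.0795). Tgtp1, the near-copy of Tgtp2, averaged 11.2 ± 3.60 TPM in KPC mice and 5.40 ± 0.540 TPM in sham mice (1.03 ± 0.17; limma adjusted p = 0.0605). Gm4070 and Gvin1, of which Gvin1 encodes a very large interferon-inducible GTPase, had log2 differences of 1.01 ± 0.18 and 0.92 ± 0.22 (limma adjusted p = 0.0795 and 0.139).

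**Figure D2:**
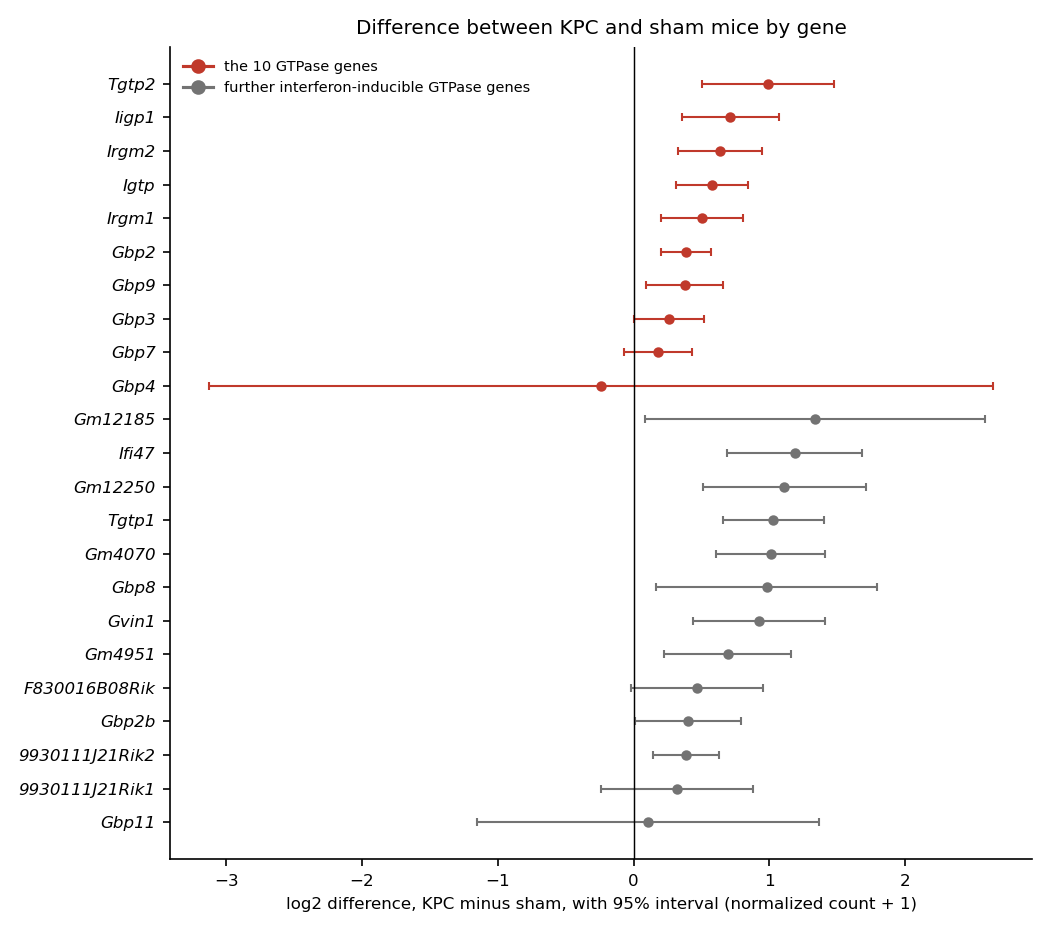
Log2 difference between KPC and sham mice (x axis, KPC minus sham, log2 of normalized count + 1) with its 95% interval for the 10 GTPase genes (red, top) and 13 further interferon-inducible GTPase genes (grey, below). The 5 IRG genes lie between 0.50 and 0.99 with intervals above 0, and the interval of Gbp4 runs from -3.12 to 2.64.

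Upstream in the pathway, the ligand was near the limit of detection. Ifng had 0 to 0.162 TPM in KPC mice and 0 to 0.188 TPM in sham mice and was not in the table that was tested. Of 16 interferon-gamma signalling genes listed, 15 were tested and all 15 differences were positive (median 0.42, or 0.26 without KPC mouse 1), with 8 at an unadjusted p under 0.05, 2 without overlap and 0 called. Ciita, the transactivator of major histocompatibility complex class II genes, averaged 3.12 ± 0.910 TPM in KPC mice and 1.36 ± 0.302 TPM in sham mice (SD, n = 5 each). Its log2 difference was 1.21 ± 0.20 (limma adjusted p = 0.0634).

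The receptor chain Ifngr1 averaged 117 ± 27.6 TPM in KPC mice and 87.8 ± 5.37 TPM in sham mice (log2 difference 0.42 ± 0.12; limma adjusted p = 0.225), and for Ifngr2 the log2 difference was 0.23 ± 0.15 (limma adjusted p = 0.529). Irf1 averaged 37.9 ± 2.82 TPM in KPC mice and 33.1 ± 4.18 TPM in sham mice (0.23 ± 0.10; limma adjusted p = 0.341). The estimate for this transcription factor was thus smaller than those of the IRG genes. Stat2 and Irf9, which act together in the response to type I interferon, had 0.56 ± 0.17 and 0.49 ± 0.15 (limma adjusted p = 0.239 and 0.243).

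Of 12 genes that induce or mark interferon-gamma production, 5 were tested, all with positive differences (median 0.58), 1 with an unadjusted p under 0.05 and 0 called. Stat4, the factor downstream of interleukin-12, averaged 0.801 ± 0.424 TPM in KPC mice and 0.411 ± 0.0966 TPM in sham mice (log2 difference 0.83 ± 0.36; limma adjusted p = 0.342). The interleukin-18 receptor genes Il18rap and Il18r1 and the T cell and natural killer cell factor Tbx21 had adjusted p of 0.554 to 0.617. All of them lay below 1 TPM on average in both groups. Il18 of the same list, named after its values were seen and left untested with a mean under 10 normalized counts, was listed at 0 in all 5 KPC mice and in sham mice 1, 2 and 4, and had 3.58 and 5.17 TPM in sham mice 3 and 5. Summed over the list, TPM ran from 2.88 to 4.71 in KPC mice and from 1.52 to 7.56 in sham mice, a ratio of means of 0.889. Il18 held 1.75 of the mean sham sum of 4.37 TPM and 0 of the mean KPC sum of 3.89 TPM. The ratio thus rests on Il18 in sham mice 3 and 5 and gives no direction for the other genes of the list.

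Other interferon-gamma targets were mixed. Of 22 tested, 16 differences were positive and 6 negative (median 0.49), 12 had an unadjusted p under 0.05 in the higher direction, 8 lay wholly higher in KPC mice and 0 were called. Serpina3g, a serine protease inhibitor, averaged 10.2 ± 4.56 TPM in KPC mice and 2.67 ± 0.983 TPM in sham mice (log2 difference 1.91 ± 0.37; limma adjusted p = 0.0795). The immunoproteasome subunit Psmb8 averaged 89.1 ± 20.8 TPM in KPC mice and 50.2 ± 6.87 TPM in sham mice (0.84 ± 0.15; limma adjusted p = 0.0795). The class II chain genes H2-Ab1 and H2-Aa had log2 differences of 1.03 ± 0.21 and 0.89 ± 0.20 (limma adjusted p = 0.0992 and 0.119). The T cell attracting chemokine Cxcl9, chosen after its values were seen, was among the 6 negatives, with 12.2 ± 4.01 TPM in KPC mice and 14.8 ± 1.81 TPM in sham mice (-0.31 ± 0.22; limma adjusted p = 0.555).

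Of 24 antiviral genes that mark type I interferon, 21 had a positive difference (median 0.39, or 0.15 without KPC mouse 1), 8 an unadjusted p under 0.05 in the higher direction, 2 lay wholly higher in KPC mice and 0 were called. Zbp1, a sensor of nucleic acids, averaged 28.7 ± 19.1 TPM in KPC mice and 10.8 ± 2.10 TPM in sham mice (log2 difference 1.28 ± 0.34; limma adjusted p = 0.174). Oas2, Ifi44 and Oasl2 had 1.38 ± 0.37, 0.78 ± 0.21 and 0.79 ± 0.25 (limma adjusted p = 0.186, 0.186 and 0.255). Of 17 genes that load the GTPases onto vacuoles or act with them in the inflammasome, 13 had a positive difference (median 0.22, or 0.11 without KPC mouse 1). An unadjusted p under 0.05 in the higher direction was reached by 2 of the 17, where 7.61% of all genes reached it, and 0 were called. Casp4, the caspase that senses bacterial lipopolysaccharide, had 1.06 ± 0.32 (limma adjusted p = 0.236), and its substrate Gsdmd 0.64 ± 0.22 (limma adjusted p = 0.273). The adaptor Pycard and the autophagy protein Gabarap had 0.89 ± 0.41 and 0.22 ± 0.10 (limma adjusted p = 0.374 for both).

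**Figure D3:**
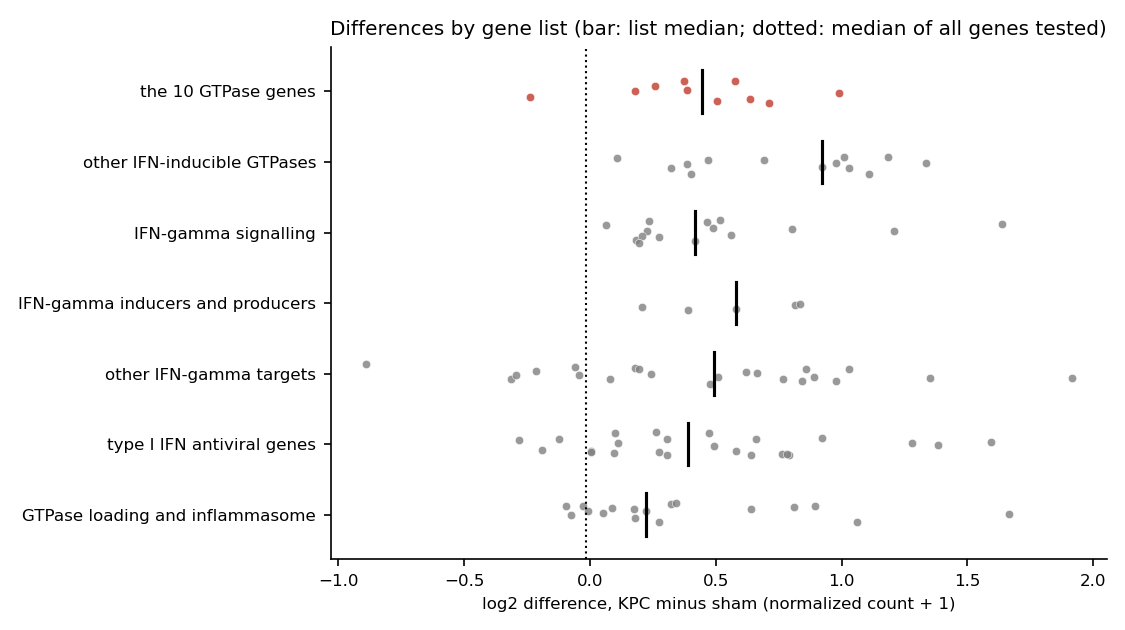
Log2 difference between KPC and sham mice (x axis, KPC minus sham, log2 of normalized count + 1) of each tested gene, as points, by gene list (y axis), with the list median as a black bar and the median of all genes tested as a dotted line. The 10 GTPase genes (red, top) have a median of 0.44 and the further interferon-inducible GTPases 0.92, against -0.02 over all genes.

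KPC mouse 5 led most of the 10 GTPase genes. KPC mouse 1 led the type I antiviral list and the lists of interferon-gamma signalling genes and other targets. In TPM, KPC mouse 5 was highest of all 10 mice for 9 of the 10 GTPase genes, and KPC mouse 1 for 0. In normalized counts KPC mouse 1 was highest for Irgm1, KPC mouse 2 for Gbp4, KPC mouse 3 for Gbp2 and KPC mouse 5 for the others. Relative to the sham mean, the median of the 10 genes was 0.42, 0.35, 0.47, 0.39 and 0.88 (log2) in KPC mice 1 to 5. KPC mouse 5 did not lead the 13 further GTPase genes, whose median was 0.69, 0.68, 0.82, 0.63 and 0.66. The median of the type I antiviral genes was 1.32 in KPC mouse 1 and 0.08 to 0.18 in KPC mice 2 to 5. It ran from -0.29 to 0.39 in sham mice, of which sham mice 1 and 5, at 0.39 and 0.19, lay above KPC mice 2 to 5. The median of the interferon-gamma signalling genes was 0.72 in KPC mouse 1 and 0.25 to 0.33 in the other KPC mice. That of the other targets was 0.89 in KPC mouse 1 and 0.29 to 0.43 in the other KPC mice. Isg15, a ubiquitin-like antiviral protein chosen here after its values were seen, had 107 TPM in KPC mouse 1, 24.6 to 35.8 TPM in the other KPC mice and 18.7 to 39.3 TPM in sham mice.

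**Figure D4:**
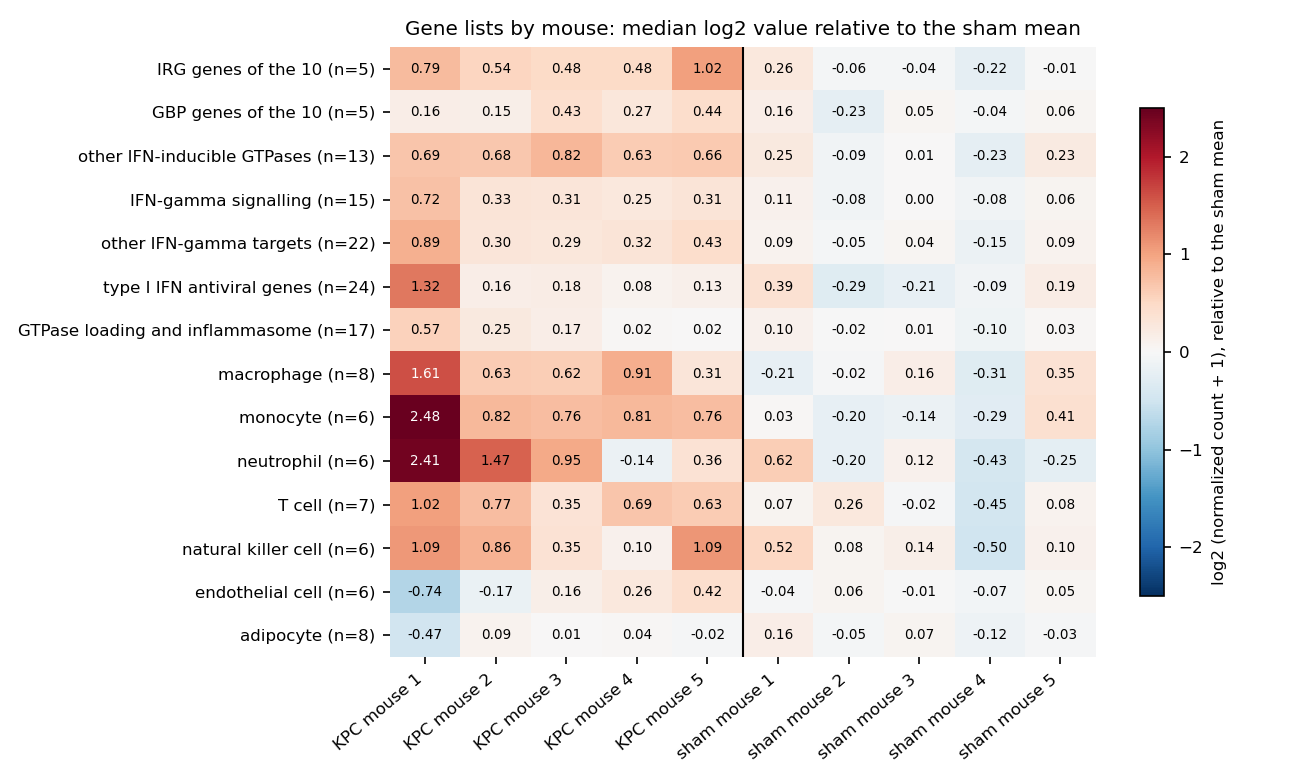
Median log2 value (normalized count + 1) relative to the sham mean, as colour and printed number, of gene lists (rows, n genes tested) in each KPC mouse (left of the line) and each sham mouse (right). KPC mouse 5 is highest in the IRG row at 1.02, and KPC mouse 1 is highest in the rows of type I antiviral genes at 1.32 and macrophage markers at 1.61.

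Most markers of leukocytes had positive differences as well, and in bulk tissue more cells of a type and more RNA per cell cannot be told apart. Macrophage markers (8 of 8 tested genes positive, 7 with an unadjusted p under 0.05, 0 called) summed to 820 to 3760 TPM in KPC mice and 505 to 847 TPM in sham mice. Dendritic cell markers (6 of 6 positive, 2 with an unadjusted p under 0.05, 0 called) summed to 29.6 to 39.3 TPM in KPC mice and 15.8 to 27.3 TPM in sham mice, without overlap. Cd209a, named after its values were seen, made up most of these sums, at 25.2 TPM on average in KPC mice and 14.4 TPM in sham mice, and the other 5 dendritic cell markers overlapped between groups. The ratio of the macrophage sums was 2.39 with all mice and 1.56 without KPC mouse 1, which held the highest value.

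T cell markers (7 of 7 positive, 3 with an unadjusted p under 0.05) summed to 8.01 to 12.3 TPM in KPC mice and 6.04 to 8.30 TPM in sham mice. Natural killer cell markers (6 of 6 positive, 1 with an unadjusted p under 0.05) summed to 9.83 to 17.4 TPM in KPC mice and 5.27 to 10.5 TPM in sham mice. Monocyte markers (5 of 6 positive, 4 with an unadjusted p under 0.05) summed to 230 to 886 TPM in KPC mice and 153 to 306 TPM in sham mice, and neutrophil markers (6 of 6 positive, 1 with an unadjusted p under 0.05) to 42.9 to 266 TPM in KPC mice and 32.5 to 70.7 TPM in sham mice. KPC mouse 1 held the upper end of both, and without it the ratio of the sums was 1.46 in place of 2.13 for monocytes and 1.45 in place of 2.30 for neutrophils. None of the markers in these 4 lists was called. Over all genes tested, 7.61% had an unadjusted p under 0.05 in the higher direction, so a single such marker in a list is not read as a result about it. Sums over different marker genes do not compare amounts of cells between types. Lyz2 and Plac8, named after their values were seen, weighed heavily in the myeloid sums. Lyz2 made up most of the macrophage sums, at 1296 TPM on average in KPC mice and 494 TPM in sham mice. Plac8 held 582 of the 886 TPM of the monocyte sum in KPC mouse 1. The mouse with the highest GTPase levels, KPC mouse 5, had the lowest macrophage sum of the KPC mice and the highest natural killer cell and endothelial sums. Its natural killer cell sum, 17.4 TPM, was close to the 17.1 TPM of KPC mouse 1. Summed over the 10 GTPase genes in TPM, KPC mouse 4 came next, at 221 TPM against 271 TPM in KPC mouse 5. On the mean log2 normalized count without Gbp4, KPC mouse 4 ranked only 4th, after KPC mice 5, 1 and 3. KPC mouse 4 had the lowest natural killer cell sum of the KPC mice, 9.83 TPM. Its endothelial sum was 357 TPM and its macrophage sum 1275 TPM. KPC mouse 1, which ranked 2nd on that mean, had the lowest endothelial sum of the KPC mice, 172 TPM. The part of leukocyte content in the GTPase differences was not tested.

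Endothelial markers summed to 172 to 374 TPM in KPC mice and 237 to 296 TPM in sham mice, and fibroblast markers to 1230 to 1945 TPM in KPC mice and 744 to 2100 TPM in sham mice. Mesothelial markers summed to 85.3 to 166 TPM in KPC mice and 77.6 to 186 TPM in sham mice, and B cell markers to 3.96 to 6.02 TPM in KPC mice and 3.35 to 5.53 TPM in sham mice. These 4 lists overlapped between groups with positive and negative members. Red cell genes (6 of 6 positive) summed to 8549 to 40713 TPM in KPC mice and 4748 to 12869 TPM in sham mice, and skeletal muscle genes (0 of 6 positive) to 50.0 to 183 TPM in KPC mice and 43.8 to 3238 TPM in sham mice. Adipocyte markers, which the tissue label calls for, summed to 36621 to 44630 TPM in KPC mice and 34887 to 42700 TPM in sham mice. Fabp4 and Cfd made up most of these sums, at 17647 and 13552 TPM on average in KPC mice and 18041 and 11098 TPM in sham mice. Of the 8 markers 4 had a positive and 4 a negative difference, and 0 were called. Plin1, named like Fabp4 and Cfd after its values were seen, had a log2 difference of -0.47 ± 0.16 (limma adjusted p = 0.279). Pancreatic acinar genes summed to 11.5 to 32.4 TPM in KPC mice and 12.4 to 22.0 TPM in sham mice with 2 of 6 genes at 0 in all mice, and epididymis and testis genes to at most 0.491 TPM.

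KPC mouse 1 stood apart from the other libraries. Mitochondrial transcripts took 15.7% of its TPM and 26.3% to 33.3% of the TPM of the other 9, and its median correlation with the others was 0.908, against 0.939 to 0.959 for them. Totals of normalized counts ran from 20941242 to 24449863. Without KPC mouse 1, 66 genes over the whole table were called higher and 4 lower, and still 0 of the 10 GTPase genes, whose differences apart from Gbp4 kept their sign. The first number in the sample titles, whose meaning the labels do not give, divides the mice into sets of 2 KPC and 2 sham, 1 KPC and 2 sham, and 2 KPC and 1 sham. Within those sets 9, 10 and 10 of the 10 genes had a positive difference, the exception being Gbp4 in the first.

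The 8 genes whose log2 values correlated best with the mean of the 10 GTPase genes over the 10 mice, among 11755 candidates, were Gbp2b, H2-Q6, Car4, Fip1l1, Tap2, Npepps, Nr5a2 and Tle1 (Pearson's r 0.922 to 0.870). This choice turned on the Gbp4 value listed at 0 in KPC mouse 1. With Gbp4 that mouse ranked 9th of the 10 on the mean, at 9.08 (log2 of normalized count + 1), and without Gbp4 it ranked 2nd, at 10.09. Against the mean of the other 9 GTPase genes, an alternative added after the data were seen, 0 of those 8 genes were among the best 8, and r was 0.704 for Gbp2b and 0.907 for H2-Q6.

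Against the mean of 9 the best 8 were Gimap4, Tgtp1, H2-Q7, Ccl5, Plvap, Cyb561, H2-Q4 and Ppp1r2. For Gimap4, which encodes a GTPase of another family found in lymphocytes, Pearson's r was 0.958 and Spearman's rho 0.988, and r was 0.946 without KPC mouse 5 and sham mouse 4, the farthest from the median on that mean. Tgtp1, with which Tgtp2 shares most of its sequence, had an r of 0.941, and the other 6 ran from 0.927 for H2-Q7, a non-classical class I gene, to 0.910 for Ppp1r2. The points share the same libraries and the genes were picked as the best of many, so no p is given for r. It was taken over both groups at once and so includes the difference between them. A positive difference in genes picked this way is therefore partly built into the choice. Ccl5, a chemokine of T cells and natural killer cells, and Plvap, a protein of endothelial cells, had log2 differences of 0.69 ± 0.26 and 0.69 ± 0.18 (limma adjusted p = 0.299 and 0.171). Of these 8 genes, Cyb561 alone passed the threshold, with a log2 difference of 1.15 ± 0.15 (limma adjusted p = 0.0274).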

How the data were processed

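RNA from frozen fat was extracted with an RNeasy Plus Mini kit and sequenced at Genewiz, per the labels' protocols. The authors deposited a signal that is never negative (normalized counts) and TPM per gene. Salmon, DESeq, DESeq2 and build mm10 are named in the submitters' processing notes, without versions; the annotation and the use of strand were not given in the sources used here. Reads of antisense or overlapping genes therefore cannot be told apart. Only 31.1% to 47.3% of normalized counts up to 30 gave a whole read (tolerance 0.05), so no count model was run.

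Here limma 3.58.1, with a variance trend, was fitted on log2(normalized count + 1), keeping genes whose mean reached 10 (14203 genes), with Benjamini-Hochberg adjustment over all of them and a threshold of 0.05. The pseudocount understates differences of low genes. The code was tested on simulated data. Levels are TPM. The 10 GTPase genes and all lists were chosen with earlier results of these data known. Named were all 10 genes, up to 4 genes of each pathway list with the smallest p, pathway ligand, receptors and factors, and the 8 genes most alike. Coordinates are GENCODE vM21 (GRCm38), and promoter windows RefSeq on GRCm38.p6. Alternatives covered pseudocount, filter, scaling, TPM, weights, blocks and left-out mice. Protein sequences were not analysed here. Some items are not reported here.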

Additional observations from a re-analysis of the deposited data

Results flagged for a closer look

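Of 20 groups of 5 values examined (each of the 10 GTPase genes in each group), 2 held a mouse far from the others by Dixon's test, and chance flags about 1 in 20. KPC mouse 5 had 32.0 TPM of Igtp, with a gap to the next KPC mouse of 0.802 of the group's range, where the critical value for 5 samples is 0.710. The same mouse had 24.7 TPM of Tgtp2, with a gap of 0.787 of the range.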

How the results depend on the processing

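Over 22 alternatives the 9 GTPase genes other than Gbp4 kept a positive difference. Limma called 0 of the 10 in every alternative except sample weights, which called 5 (Irgm2, Gbp2, Igtp, Iigp1 and Tgtp2, adjusted p = 0.0158 to 0.0457). Over the whole table, 7 genes higher and 1 lower became 172 and 28 with sample weights, 2 and 0 with TPM and a pseudocount of 1, 4 higher with TPM and a pseudocount of 0.1, and 2 higher without a variance trend. Leaving out 1 mouse gave 1 to 66 genes higher and 1 to 4 lower, with 66 and 4 without KPC mouse 1, 13 higher without KPC mouse 2, 1 higher without KPC mouse 4 or sham mouse 4, 2 higher without sham mouse 1, 2 or 3, 3 higher without sham mouse 5, 4 higher without KPC mouse 5, and 2 lower without KPC mouse 3. Mice with the same number did not deviate together (r 0.0051 to 0.191, own number best for 2 of 5), so the numbers were not taken as pairs. The replicate block gave 3 genes higher, as did the block on the title number, and 0 of the 10 GTPase genes in both. Gbp4 turned positive with a pseudocount of 5 (0.16), with TPM (0.32 and 0.23 at pseudocounts of 1 and 0.1) and with sample weights (0.88). With 1 mouse left out it ran from -0.72 to 1.23, and was 0.06 without sham mouse 3. The sum of Gbp4, Gbp8 and Gbp9 (0.45) was mostly Gbp9 and gives no sign for Gbp4 itself. In TPM with a pseudocount of 1 the median of the further GTPases was 0.47 and that of the inducers and producers 0.13, where normalized counts gave 0.92 and 0.58. A pseudocount of 1 TPM shrinks the log2 difference of genes below 1 TPM, where all tested inducers and producers lay on average in both groups. How much of the 2 changes it accounts for was not tested. The number of mice limits precision, with a median SE of 0.17 (log2) over all genes.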
